A study of Canis lupus familiaris with 6 samples.

Results

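De novo purine and pyrimidine synthesis was described through 10 enzyme genes, listed in pathway order as PPAT, GART, PFAS, PAICS, ADSL, ATIC and IMPDH2 for purines and CAD, DHODH and UMPS for pyrimidines. A gene was represented by every array probe set that carried it as the only symbol in the platform annotation, and its brightest probe set stood for it. Of the 10 genes, 9 had such a probe set, 13 probe sets in all out of 42924 that were not controls. No probe set carried GART alone, so GART was not analysed here. All 9 passed the filter on dim probe sets and were tested among 9145 genes. The samples were 6 canine primary osteosarcoma lines, osteosarcoma being a malignant tumour of bone, with 1 Affymetrix array per line. UWKOS1, UWKOS3 and UWKOS7 had formed tumours once transplanted into mice (tumorigenic, n = 3), and UWKOS2, UWKOS6 and UWKOS8 had not (non-tumorigenic, n = 3). RNA was taken from the lines in culture and not from the transplants, all lines had been grown in the same serum-containing medium with pyruvate, glutamine and vitamins, and no normal bone cells or reference line were included. No genotype, age or treatment was given in the labels used here.

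Cells build purine rings stepwise on a sugar phosphate, PRPP, with nitrogen from glutamine, glycine and aspartate and with one-carbon units carried by folate. The pathway ends in IMP, from which AMP and GMP are made. Pyrimidines are built as a free ring from glutamine, aspartate and bicarbonate, and the ring is then attached to PRPP to give UMP. Proliferating cells draw on both pathways for RNA and DNA, and many of the enzymes are targets of antimetabolite or immunosuppressive drugs. An array measures transcript levels and says nothing directly of enzyme activity or nucleotide pools.

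The deposited values were log2 signals, with array medians between 6.03 and 6.05. Ratios of the 3′ to the 5′ end of control transcripts, a measure of RNA quality, averaged 2.63 in the tumorigenic and 3.16 in the non-tumorigenic lines on the log2 scale over 4 control pairs. UWKOS6 (3.38) and UWKOS8 (3.24) were highest. The groups did not overlap on that mean (two-sided exact permutation p = 0.1, the smallest that 3 against 3 can give). On each pair alone they overlapped (exact permutation p = 0.2 for ACTB and both GAPDH pairs and 0.4 for EF1A). The EF1A pair read 7.90 to 9.09, the other pairs 0.40 to 2.86. Of 10 osteoblast markers 9 had a probe set. COL1A1, COL1A2 and SPARC were above 12 in every line, RUNX2 lay near the filter value of 6.07, BGLAP read 5.32 to 6.64, and ALPL, IBSP and SPP1 fell below the filter on average, with SPP1 at 9.76 in UWKOS1 and at most 3.30 in any other line. OMD, osteomodulin, read 3.22 to 6.42 in the tumorigenic and 9.58 to 9.97 in the non-tumorigenic lines (difference -4.53 on the log2 scale, SE 0.83, limma adjusted p = 0.0261). Values near or under 6.07 are not known to exceed background, so the size for OMD is uncertain. Its tumorigenic mean of 5.28 lay under the filter, which OMD reached through the non-tumorigenic lines. OMD did not pass without UWKOS2, UWKOS6 or UWKOS8 (limma adjusted p = 0.0623, 0.101 and 0.0771).

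Transcripts of 4 of the 9 measured enzymes, PPAT, PAICS, ADSL and UMPS, rose in the tumorigenic lines, by 1.11 to 1.61 on the log2 scale. No member fell, also at an unadjusted p under 0.05, where 7 members were higher and 0 lower in limma, beside 1778 higher and 1150 lower of all 9145 genes. PFAS, CAD, ATIC, DHODH and IMPDH2 did not pass. PPAT is counted here though it reached the filter on dim probe sets only through the tumorigenic lines. Over all 9145 genes 7.50% rose and 4.63% fell. The median difference over the 9 members was 1.07, against 0.03 over all genes tested, and all 9 differences were above 0. In 7 of the 9 genes every tumorigenic line lay above every non-tumorigenic line, which held for 21.7% of all genes. The members were listed with results of these data known, so these counts describe the list and do not test it.

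**Figure D1:**
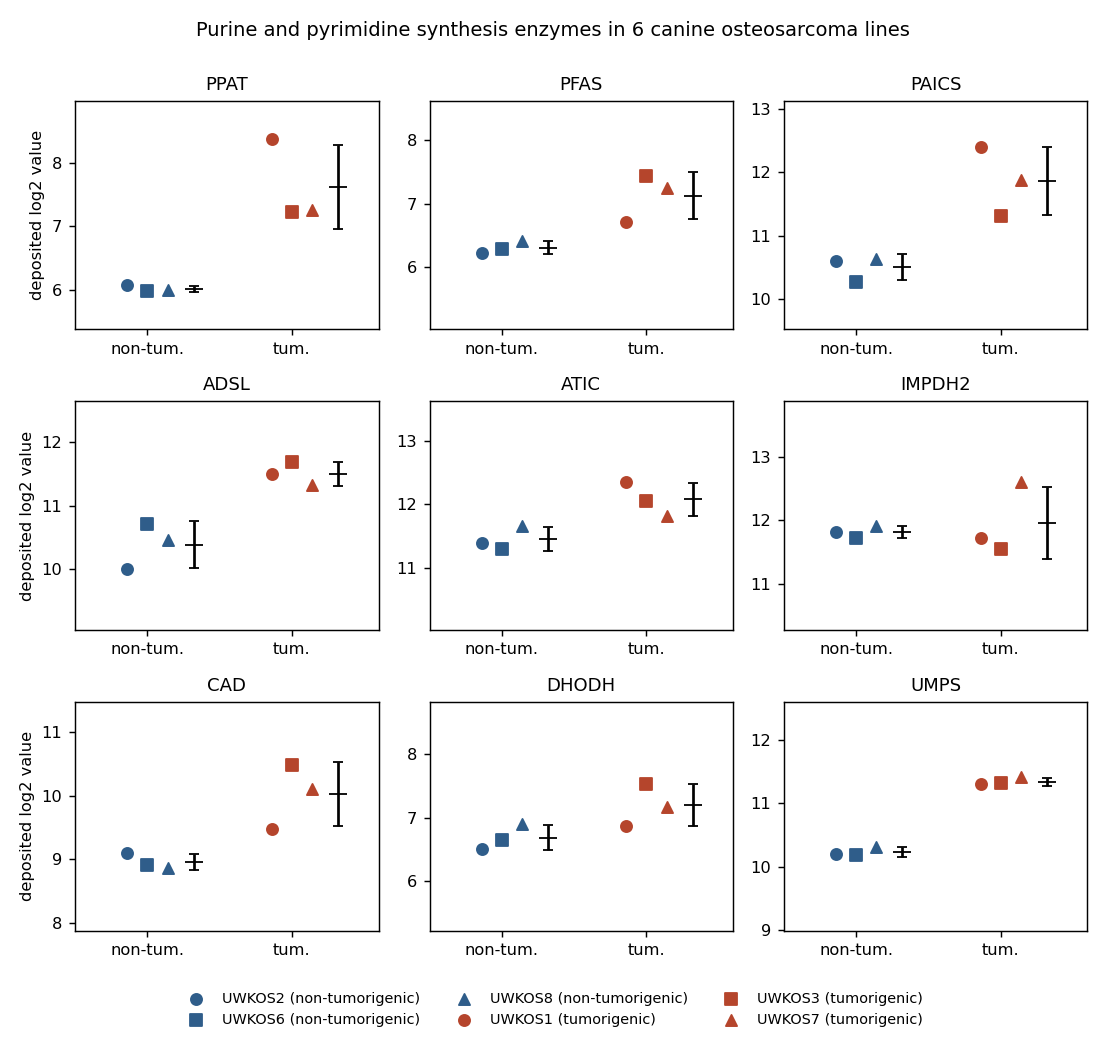
Deposited log2 values of the 9 measured enzymes in the 6 lines, blue for non-tumorigenic and red for tumorigenic, with the mean and SD of each group beside the points; every panel spans the same number of log2 units, centred on its own gene. PPAT, PFAS, PAICS, ADSL, ATIC, CAD and UMPS show no overlap between groups, while IMPDH2 and DHODH overlap.

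PPAT, the amidophosphoribosyltransferase that commits PRPP to purine synthesis, had log2 values of 8.38 in UWKOS1, 7.22 in UWKOS3 and 7.26 in UWKOS7. It read 6.06 in UWKOS2, 5.98 in UWKOS6 and 5.99 in UWKOS8. UWKOS1 stood above the other tumorigenic lines, and the groups were 1.15 apart at their nearest. The means were 7.62 ± 0.66 (SD, n = 3) and 6.01 ± 0.048 (SD, n = 3), a difference of 1.61 (SE 0.33, limma adjusted p = 0.0327) or 3.05-fold. The non-tumorigenic values lay below 6.07, the median probe set of these arrays, and are not known to exceed background, so the fold is uncertain. The filter used the mean over all lines, so PPAT reached it only through the tumorigenic lines. In the fit without a filter its limma adjusted p was 0.0430. PPAT did not pass without UWKOS2, UWKOS3, UWKOS6 or UWKOS8 (limma adjusted p between 0.0546 and 0.123). Less RNA per cell and fewer cells with the transcript cannot be told apart in RNA from whole cultures, here and for every gene that follows.

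PFAS uses glutamine to add a nitrogen in the middle of the pathway. Its values were 6.71 in UWKOS1, 7.44 in UWKOS3 and 7.24 in UWKOS7, and 6.22 in UWKOS2, 6.30 in UWKOS6 and 6.42 in UWKOS8. The groups were separate by 0.29, with UWKOS1 closest to the non-tumorigenic lines. The difference of 0.82 (SE 0.22) did not pass (limma adjusted p = 0.0606), and it passed without UWKOS1 (1.03, limma adjusted p = 0.0381).

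PAICS, a bifunctional enzyme that carboxylates the ring and then attaches aspartate, read 12.39 in UWKOS1, 11.31 in UWKOS3 and 11.88 in UWKOS7. The non-tumorigenic values were 10.61 in UWKOS2, 10.27 in UWKOS6 and 10.64 in UWKOS8. As with PPAT, UWKOS1 was highest and UWKOS3 lowest among the tumorigenic lines. The means of 11.86 ± 0.54 (SD, n = 3) and 10.50 ± 0.21 (SD, n = 3) differed by 1.36 (SE 0.29, limma adjusted p = 0.0373), or 2.56-fold. Its other probe set, on which UWKOS1 was also highest, differed by 1.99 (SE 0.35, limma adjusted p = 0.0248). In the gene-level fit PAICS passed without UWKOS3 and did not pass with any other line left out (limma adjusted p between 0.0603 and 0.137). PPAT and PAICS are neighbours: in the RefSeq table of assembly UU_Cfam_GSD_1.0 the PPAT record lies within the span of the PAICS record. Each had probe sets of its own; whether these also detect transcripts of the other gene was not tested.

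ADSL, adenylosuccinate lyase, splits off fumarate late in IMP synthesis and once more in the branch to AMP. It read 11.51 in UWKOS1, 11.70 in UWKOS3 and 11.32 in UWKOS7, against 10.00 in UWKOS2, 10.72 in UWKOS6 and 10.46 in UWKOS8. Here the non-tumorigenic lines were the more spread, with an SD of 0.36 against 0.19. The difference was 1.12 (SE 0.23, limma adjusted p = 0.0327), or 2.17-fold, and the other probe set differed by 1.48 (SE 0.23, limma adjusted p = 0.0208). ADSL passed without UWKOS7 and did not pass with any other line left out (limma adjusted p between 0.0645 and 0.0884).

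ATIC, whose product is IMP, takes a formyl group from folate in its first reaction. Its values were 12.35 in UWKOS1, 12.05 in UWKOS3 and 11.82 in UWKOS7, and 11.39 in UWKOS2, 11.29 in UWKOS6 and 11.65 in UWKOS8. The groups came within 0.165 of each other, between UWKOS7 and UWKOS8. The difference of 0.63 (SE 0.20) did not pass (limma adjusted p = 0.0863). The other ATIC probe set averaged 4.80, below the filter, and differed by -0.22, so the ATIC probe sets differ in sign, the dim one not being known to measure ATIC above background.

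IMPDH2, the rate-limiting enzyme from IMP toward GMP, had overlapping groups. It read 12.60 in UWKOS7, above all other lines, but 11.71 in UWKOS1 and 11.55 in UWKOS3, which lay below every non-tumorigenic line (11.82 in UWKOS2, 11.73 in UWKOS6 and 11.91 in UWKOS8). The difference of 0.13 had a 95% confidence interval from -0.57 to 0.84 (limma adjusted p = 0.782), so that interval still held a rise of 0.84 between group means. Without UWKOS7 the difference was -0.19 (limma adjusted p = 0.462).

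CAD carries out the opening reactions of pyrimidine synthesis on a single polypeptide. Its values were 9.49 in UWKOS1, 10.49 in UWKOS3 and 10.10 in UWKOS7, and 9.10 in UWKOS2, 8.91 in UWKOS6 and 8.86 in UWKOS8. The groups did not overlap, and UWKOS1 was the tumorigenic line nearest the others. The means of 10.03 ± 0.51 (SD, n = 3) and 8.96 ± 0.13 (SD, n = 3) differed by 1.07 (SE 0.27, limma adjusted p = 0.0532), just short of the threshold. Without UWKOS1 CAD passed (1.34, limma adjusted p = 0.0354).

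DHODH, the mitochondrial enzyme that oxidises dihydroorotate to orotate, read 6.88 in UWKOS1, 7.54 in UWKOS3 and 7.18 in UWKOS7. It read 6.52 in UWKOS2, 6.65 in UWKOS6 and 6.90 in UWKOS8. UWKOS8 lay just above UWKOS1, so the groups overlapped. The difference of 0.51 (SE 0.22) did not pass (limma adjusted p = 0.169).

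UMPS, a bifunctional enzyme that joins orotate to PRPP and decarboxylates the product to UMP, had the smallest adjusted p of the members. It read 11.30 in UWKOS1, 11.32 in UWKOS3 and 11.41 in UWKOS7, against 10.21 in UWKOS2, 10.18 in UWKOS6 and 10.32 in UWKOS8. The lines of each group lay close together and the groups were 0.98 apart at their nearest. The means of 11.34 ± 0.062 (SD, n = 3) and 10.24 ± 0.074 (SD, n = 3) differed by 1.11 (SE 0.14, limma adjusted p = 0.0152), or 2.16-fold. The other probe set gave 1.19 (SE 0.14, limma adjusted p = 0.0140). UMPS passed with any 1 line left out except UWKOS6 (1.08, limma adjusted p = 0.0770).

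**Figure D2:**
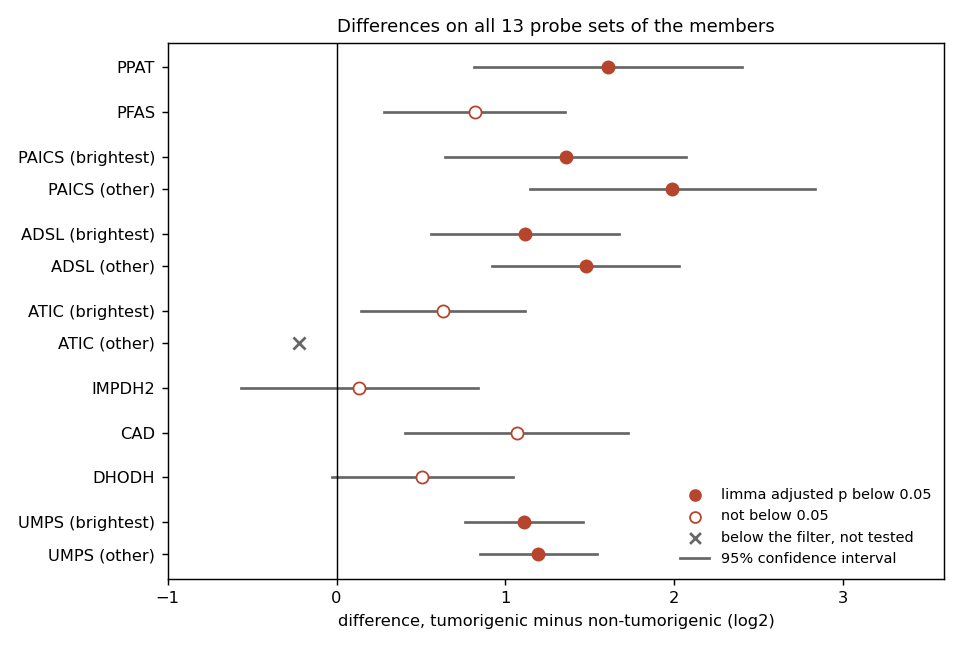
Difference between group means on the log2 scale (tumorigenic minus non-tumorigenic) for each of the 13 probe sets of the members, with the 95% confidence interval of the limma fit over all tested probe sets. Filled points passed at an adjusted p of 0.05; the cross is the dim ATIC probe set, which was not tested.

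On the level of probe sets, 7 of the 12 tested passed, all higher in the tumorigenic lines, where 7.28% of all tested probe sets did so. They were the single probe set of PPAT and both probe sets of PAICS, ADSL and UMPS, so each called gene with more than 1 probe set was called on both. Ordered by the size of the difference, the members ran from PPAT, PAICS, ADSL, UMPS and CAD (1.61 down to 1.07) to PFAS, ATIC, DHODH and IMPDH2 (0.82 down to 0.13). The intervals of neighbouring genes in that order overlapped, and no difference between members was tested.

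The tumorigenic lines differed in which enzyme was highest. UWKOS1 was the highest line of all for PPAT, PAICS and ATIC. UWKOS3 was highest for PFAS, ADSL, CAD and DHODH, and UWKOS7 for IMPDH2 and UMPS. UWKOS1 was also the lowest tumorigenic line for PFAS, CAD, DHODH and UMPS. Among the non-tumorigenic lines UWKOS8 was highest in 6 of the 9 genes and UWKOS6 lowest in 5. After each gene was centred on its mean over the lines, the median over the 9 genes was 0.51 to 0.53 in the tumorigenic and -0.50 to -0.47 in the non-tumorigenic lines, so the lines of a group were alike in the middle of the list while differing in single genes.

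Related enzymes, carriers and regulators were counted in the same fit, from lists drawn up for their function. Of 61 such genes tested, 9 rose, MYC among them, and 1 fell, against 7.50% and 4.63% of all genes. Without UWKOS6, 0 of the 61 passed in limma, with 13 higher and 3 lower at an unadjusted p under 0.05. In that fit 12 of all 9145 genes passed and 1992 were past an unadjusted p of 0.05.

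PRPP synthetases, which make the sugar phosphate both pathways need, rose. PRPS2 read 7.31 in UWKOS1, 7.38 in UWKOS3 and 7.46 in UWKOS7, against 6.13 in UWKOS2, 6.08 in UWKOS6 and 6.05 in UWKOS8, a difference of 1.30 (SE 0.14, limma adjusted p = 0.0132). The non-tumorigenic values of PRPS2 lie at about the filter value of 6.07 and are not known to exceed background, so the size of the difference is uncertain. PRPS1 read 8.67, 9.18 and 8.30 in the tumorigenic lines, in the same order, and 7.30, 6.30 and 6.77 in the others, a difference of 1.93 (SE 0.33, limma adjusted p = 0.0234). Neither gene overlapped between groups. In the list of PRPP, AMP, GMP and CTP enzymes these were the 2 of 6 tested that rose, 0 fell, and the median was 0.90. IMPDH1, the second IMP dehydrogenase, was lower in all 3 tumorigenic lines (7.94 to 8.63) than in the others (8.89 to 9.04), a difference of -0.61 that did not pass (limma adjusted p = 0.107), and GMP synthetase GMPS differed by 0.50 (limma adjusted p = 0.211). PRPS2 did not pass without UWKOS6 (limma adjusted p = 0.0713), and PRPS1 passed only without UWKOS2 or UWKOS7 among the fits with a line left out (limma adjusted p = 0.0873 without UWKOS6).

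Folate one-carbon genes had 4 members that rose out of 14 tested and 0 that fell; their median difference was 0.80. SHMT1, the cytosolic serine hydroxymethyltransferase, read 7.30 in UWKOS1, 7.63 in UWKOS3 and 7.96 in UWKOS7, against 5.44 to 5.51 in the others, a difference of 2.15 (SE 0.20, limma adjusted p = 0.0112). Those lower values lie under the filter value of 6.07 and are not known to exceed background. SHMT1 thus reached the filter only through the tumorigenic lines, and the size of its difference is uncertain. The mitochondrial folate carrier SLC25A32 rose by 1.82, the mitochondrial formate-producing enzyme MTHFD1L by 0.80 and the reduced folate carrier SLC19A1 by 1.19, each with no overlap between groups. SLC19A1 has another tested probe set, which missed the threshold at 1.12 (limma adjusted p = 0.0790). SHMT2, the mitochondrial counterpart of SHMT1, was picked with its values known and not by the naming rule; it read 12.73 to 13.42 in all lines and differed by 0.07 (limma adjusted p = 0.868). SHMT1 and SLC25A32 passed with any 1 line left out except UWKOS6 (limma adjusted p = 0.0713 and 0.0788), while MTHFD1L and SLC19A1 passed only without UWKOS7 (limma adjusted p = 0.119 and 0.146 without UWKOS6).

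Among 11 tested genes of nucleotide salvage and uptake, 2 rose and 0 fell; the median difference was 0.25. Deoxycytidine kinase, DCK, read 9.41 in UWKOS1, 9.40 in UWKOS3 and 8.64 in UWKOS7, against 7.13 in UWKOS2, 6.35 in UWKOS6 and 7.11 in UWKOS8, a difference of 2.29 (SE 0.31, limma adjusted p = 0.0161). Its groups were well apart, and it failed only without UWKOS6 (limma adjusted p = 0.0713) among the fits with a line left out. The uridine kinase UCK2 rose by 0.73 and passed only without UWKOS7 among those fits (limma adjusted p = 0.142 without UWKOS6). HPRT1, which salvages hypoxanthine and guanine, differed by 1.02 without overlap and did not pass (limma adjusted p = 0.0586), and the mitochondrial deoxyguanosine kinase DGUOK differed by -0.44 (limma adjusted p = 0.115).

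Of 5 tested genes of deoxynucleotide synthesis, 0 passed in limma, while 2 were higher and 0 lower at an unadjusted p under 0.05, and the median was 0.66. The ribonucleotide reductase subunit RRM2 differed by 1.38 (limma adjusted p = 0.0585) and dUTPase, DUT, by 0.66 (limma adjusted p = 0.0803), both without overlap. Thymidylate synthase, TYMS, read 11.44 to 11.69 in the tumorigenic lines and 11.77 in UWKOS8, above all of them, and differed by 0.80 (limma adjusted p = 0.247). RRM1 differed by 0.45 (limma adjusted p = 0.274). Among 9 nucleotide kinases 0 passed in limma, with 2 higher and 1 lower at an unadjusted p under 0.05, and the median was -0.09. DTYMK differed by 0.64, NME1 by 0.80, AK1 by -1.34 and CMPK1 by -0.37.

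Of 9 tested genes of nucleotide breakdown, DPYD alone fell and 0 rose, and the median difference was -0.34. DPYD, dihydropyrimidine dehydrogenase, starts the breakdown of uracil and thymine. It read 8.99 in UWKOS1, 9.22 in UWKOS3 and 7.91 in UWKOS7, against 10.52 in UWKOS2, 10.77 in UWKOS6 and 9.88 in UWKOS8, a difference of -1.68 (SE 0.40, limma adjusted p = 0.0455). Another tested probe set of DPYD missed the threshold at -1.16 (limma adjusted p = 0.183), and DPYD passed only without UWKOS7 among the fits with a line left out (limma adjusted p = 0.157 without UWKOS6). Uridine phosphorylase UPP1 (-0.74) and adenosine deaminase ADA (-1.27) were lower in every tumorigenic line without passing (limma adjusted p = 0.0639 and 0.107), and the cytidine deaminase CDA differed by -0.34. For ADA the groups all but touched, at 9.900 in UWKOS1 and 9.905 in UWKOS8.

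Among 8 regulators, MYC, a transcription factor with many genes of nucleotide synthesis among its known targets, rose by 1.32 (limma adjusted p = 0.0240), and 0 fell; the median difference of the list was 0.25. MYC read 10.80 in UWKOS1, 11.06 in UWKOS3 and 11.17 in UWKOS7, and 10.03, 9.75 and 9.29 in UWKOS2, UWKOS6 and UWKOS8. MYC did not pass without UWKOS3, UWKOS6 or UWKOS8 (limma adjusted p = 0.0947 without UWKOS6). PRPSAP2, which binds the PRPP synthetases, differed by 1.09 (limma adjusted p = 0.159), E2F1 by 0.72 and MTOR by 0.33.

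**Figure D3:**
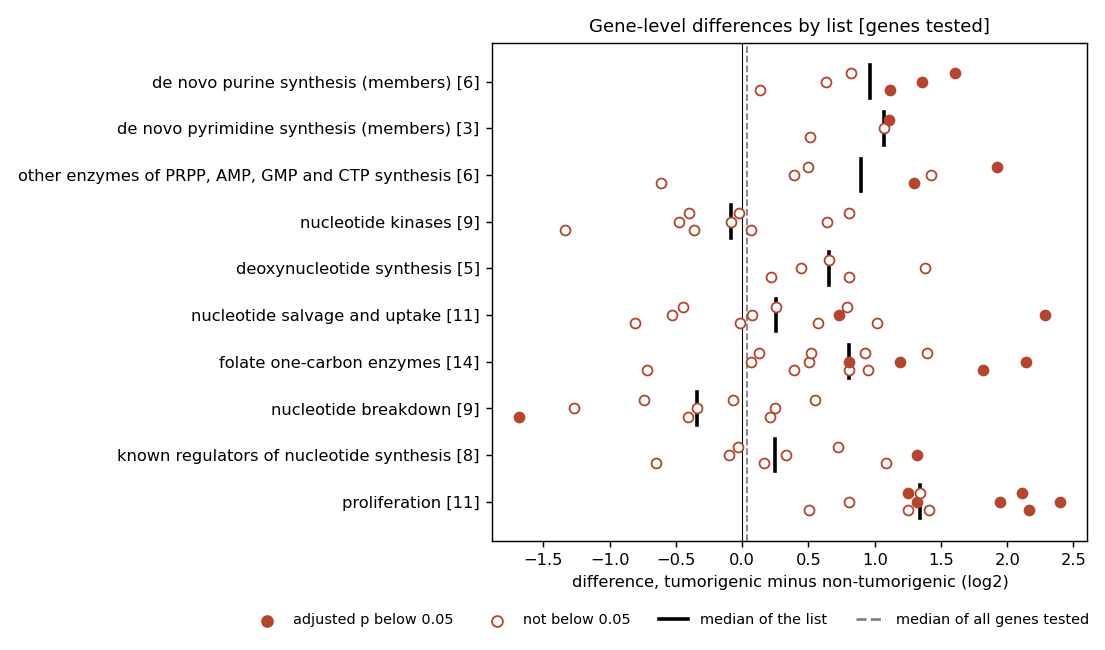
Differences on the log2 scale (tumorigenic minus non-tumorigenic) of every tested gene in each list, filled where the limma adjusted p was below 0.05, with the list's median as a bar and the median of all genes tested (0.03) as a dashed line; points are spread vertically for legibility only. Both member lists have medians near 1, breakdown genes a median of -0.34, and the proliferation genes a median of 1.34.

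Other markers moved with the same split of the lines. Of 11 tested proliferation genes 6 rose and 0 fell. With a line left out, 0 rose without UWKOS6, 1 without UWKOS3, 2 without UWKOS1 or UWKOS2, 4 without UWKOS7 and 7 without UWKOS8. Calls over all 9145 genes varied too. In all, 5 genes rose without UWKOS6, 188 without UWKOS3, 343 without UWKOS1, 291 without UWKOS2, 823 without UWKOS7 and 233 without UWKOS8. The summed level of the proliferation genes was 15.22 to 15.37 on the log2 scale in the tumorigenic lines and 13.85 (UWKOS6), 14.18 (UWKOS2) and 14.79 (UWKOS8) in the others. Within the non-tumorigenic group UWKOS8 was highest on that sum and in 6 of the 9 enzymes. The centred median over the 9 enzymes was nevertheless -0.47 in both UWKOS8 and UWKOS6, and -0.50 in UWKOS2. Whether that sum and the enzymes move together was not tested. Fibroblast markers, with 0 of 10 tested genes past the limma threshold and 6 lower at an unadjusted p under 0.05, summed to 15.26 to 15.47 against 16.34 to 16.51. COL6A1 had the smallest p (-1.51, limma adjusted p = 0.0506), and PDGFRA alone of the tested genes differed upward (0.78). Of 6 smooth muscle and myofibroblast markers 2 fell, ACTG2 (-3.19) and TPM2 (-1.50), and the list summed to 12.07 to 14.89 against 15.71 to 16.01. Other tested probe sets of TPM2 missed the threshold (limma adjusted p = 0.0825 and 0.0503), and DES alone of the tested genes differed upward (0.40). With a line left out, 0 of the 6 markers fell without UWKOS6 or UWKOS8, 1 without UWKOS1, UWKOS2 or UWKOS3 and 4 without UWKOS7. Of all 9145 genes, 7 fell without UWKOS6, 100 without UWKOS8, 245 without UWKOS1, 187 without UWKOS2, 168 without UWKOS3 and 490 without UWKOS7. Those numbers are also the background of the osteoblast counts that follow. Of 6 tested osteoblast markers OMD fell, 0 rose and 3 were lower at an unadjusted p under 0.05. In the fits with a line left out, 0 fell without UWKOS2, UWKOS6 or UWKOS8, 1 without UWKOS1 or UWKOS3 and 3 without UWKOS7. The 9 osteoblast markers with a probe set summed to 14.37 to 15.19 against 15.42 to 15.64. For macrophages and osteoclasts the sums were 9.23 to 11.90 against 13.13 to 13.46. CTSK read 8.06 to 11.77 and 13.05 to 13.39 there. In UWKOS2 CTSK alone read 13.37 beside a sum of 13.43. Of the 4 tested markers 0 passed in limma. Besides CTSK, CD68 differed by -1.07 with overlap, ACP5 by -0.18 and CD14 by 0.04. CSF1R, CD163, AIF1 and ITGAM were below the filter. Endothelial markers summed to 8.96 to 9.37 against 8.74 to 8.86, and epithelial markers to 7.74 to 9.18 against 7.01 to 7.37. Of the 3 tested endothelial markers 0 passed in limma. KDR alone differed upward (1.11, limma adjusted p = 0.0909), while CDH5 differed by -0.04 and CLDN5 by -0.11. PECAM1, VWF and TEK of the endothelial list and KRT8, KRT18, EPCAM and CDH1 of the epithelial list were below the filter. EPCAM read 7.65 in UWKOS1, and KRT8 6.49 in UWKOS1 and 6.64 in UWKOS3, each lying under 6.07 in the remaining lines. KRT7, the only tested epithelial marker, rose (0.81, limma adjusted p = 0.0445) from a non-tumorigenic mean of 6.08, near the filter value. KRT7 did not pass with any 1 line left out (limma adjusted p between 0.054 and 0.13). Lymphocyte markers summed to 7.43 to 7.81 against 7.76 to 7.96, with PTPRC, CD3D, CD2, MS4A1 and CD79A below the filter. The part of these markers, and of the transcript-end ratios, in the enzyme differences was not tested.

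The calls depended on which lines were compared more than the differences did. Without UWKOS6 0 of the 9 members passed in limma, 6 members and 1992 genes were past an unadjusted p of 0.05, and 12 of 9145 genes passed in all. The median over the members was then 1.04. Without both UWKOS6 and UWKOS8, the lines of highest mean transcript-end ratio, the median was 0.92. UWKOS2, alone in its group, then took its spread from the tumorigenic lines. With arrays centred on the hybridization controls, which moved the median of all genes up by 0.17, 7 members rose, PFAS, ATIC and CAD being added. Calls also grew over all 9145 genes, of which 1167 rose instead of 686, and 79.1% of the called genes were higher instead of 61.9%. The median over the members was then 1.24.

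**Figure D4:**
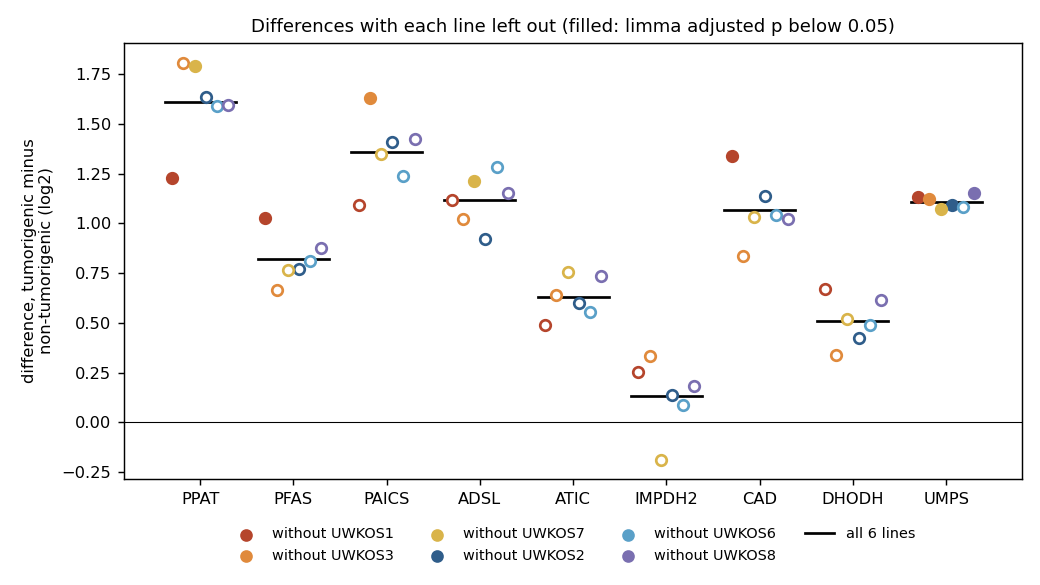
Difference of each enzyme on the log2 scale (tumorigenic minus non-tumorigenic) with all 6 lines (bar) and with each line left out in turn (points, filled where the limma adjusted p was below 0.05). UMPS stays between 1.07 and 1.15, PPAT is lowest without UWKOS1, and IMPDH2 turns negative without UWKOS7.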

How the data were processed

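The deposited table held 1 log2 signal per probe set and array, 43035 rows of which 111 were controls. MAS5 is the only tool the submitters' processing notes name, without a version, and quantiles were nearly the same in all 6 deposited log2 columns, so the summary and normalization steps are not settled here. Values were used as deposited. Symbols came from the platform annotation, which can be old, updated through gene identifiers to RefSeq assembly UU_Cfam_GSD_1.0 for 27680 of 29254 probe sets with 1 symbol. PAICS kept the annotation's symbol. The RefSeq table gave gene names and the order of neighbouring genes; no sequences were used.

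Tested were 21462 probe sets whose mean over the arrays reached 6.07, the median of non-control probe sets. The brightest probe set of a gene stood for it. The test was that of limma 3.58.1 (lmFit, then eBayes) under R 4.3.3 without covariates. P-values were adjusted by Benjamini-Hochberg over all genes or probe sets, at a threshold of 0.05. The fit was tested on simulated data. Alternatives changed the filter, normalization, centring, variance model, array weights, probe set choice, lines and covariates. All members were named, and up to 4 genes of smallest p from each other list of related genes. SHMT2 is an exception to this rule. For cell type and proliferation lists the summed level was given, and single markers were named in some of them. Members, lists and alternatives were chosen with earlier results of these data known. Replicate numbers follow accession order and pair nothing. No line was arrayed more than once, so p-values measure the spread between these lines, whose number limits the precision. Figures used matplotlib 3.10.9.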

Additional observations from a re-analysis of the deposited data

How the results depend on the processing

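The difference of every tested member kept its sign in each alternative that tested it, except that of IMPDH2, which ranged from -0.19 to 0.34 with 1 line left out. The number of members past the threshold was 4 with all lines and ranged from 0 to 4 with 1 line left out. It was 6 with array weights, PFAS and CAD being added, where 15.8% of all genes passed. It was 7 with arrays centred on the hybridization controls, where 16.1% of all genes passed. It was 0 with either transcript-end ratio, that of GAPDH or the mean of the 4 control pairs, as a covariate. The number of genes past the limma threshold was 1109 with all lines and ranged from 12 to 1313 with 1 line left out. It was 2 with the GAPDH ratio and 0 with the mean ratio, where 616 genes and 2 members were past an unadjusted p of 0.05. Fits with a covariate or with lines left out have fewer residual degrees of freedom. The cause of the changed counts was not tested. In the fit over probe sets the same 4 members passed. No offset was tried on a log2 table.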
